A study of Rattus norvegicus with 24 samples.

Results

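Oxidative phosphorylation (OXPHOS) is the last stage of respiration. In the inner membrane of the mitochondrion, complexes I and II pass electrons from NADH and succinate to complex III, cytochrome c carries them on to complex IV, which reduces oxygen, and complex V uses the resulting proton gradient to make ATP. Each complex is assembled from many subunits, most of them encoded in the nucleus, and several subunits of complex IV exist as paired isoforms, with a form used by most tissues and a form used by heart and skeletal muscle. Here the nuclear genes of these subunits were followed in the lungs of rats that inhaled hexanal, an aldehyde found in indoor air. The genes were taken by symbol: the Ndufa, Ndufb, Ndufc, Ndufs and Ndufv series of complex I, Sdha to Sdhd of complex II, the Uqcr genes of complex III, the Cox4i to Cox8 genes of complex IV and the Atp5 genes of complex V. The gene table held 98 such symbols, 74 of them had a probe on the array, and 73 of the 21261 genes or unnamed probes that passed a filter on dim signals were subunits. The exception was Cox8c, an isoform of complex IV known from testis, which was well above background on 0 of 24 arrays. Among symbols with no matched probe, and therefore not analysed here, was Cox7a1, the third muscle isoform of complex IV. The 73 genes comprised 29 of complex I, 4 of complex II, 8 of complex III, 16 of complex IV (with Ndufa4, which was first assigned to complex I) and 16 of complex V. Assignment followed the symbols, so factors named like subunits, such as Atp5if1 and Cox7a2l, were counted as subunit genes.

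Total lung RNA of 24 Fischer-344 rats of both sexes, 7 to 8 weeks old, was hybridised to one-colour arrays, 1 rat to an array. The control group breathed filtered clean air, and the low-, middle- and high-dose groups breathed hexanal at 600, 1000 and 1500 ppm for 4 hours a day on 5 days a week (the labels give 5 weeks of exposure and the same concentrations in mg per cubic metre, and the methods give 4 weeks and ppm). Each group held 6 rats, 3 males and 3 females, none of them genetically modified. A level is log2 of the processed signal, from which the array's own 75th percentile (on the same scale) was subtracted, and a difference is the mean level of a dose group minus that of the control group, so that 1 on this scale is a doubling.

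All 73 probes were well above background on all 24 arrays and none was saturated. The share of probes well above background ranged from 70.7% to 81.9% over the arrays. All 10 lung epithelial and endothelial markers, among them the surfactant gene Sftpc, were well above background on every array. The arrays lay on 6 slides of 4, each slide holding rats of 1 sex only. Slides 1 and 4 held the control rats with 1 low-dose rat each, slides 2 and 5 held low- and middle-dose rats, and slides 3 and 6 held 1 middle-dose rat each with the high-dose rats, so no control rat shared a slide with a middle- or high-dose rat.

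The muscle isoforms turned out to be the members that varied most, and the promoters of a muscle pair and of the common form of subunit VIII are shown to introduce them. The sequences are the 200 bases before the RefSeq gene start on GRCr8, 5′ to 3′ on the gene's strand, which is the minus strand in each case. They lie at chr1:192219717-192219916 for Cox6a2, at chr1:205408274-205408473 for Cox8b and at chr1:213833624-213833823 for Cox8a. Capitals mark the E-box CANNTG bound by helix-loop-helix proteins such as the myogenic factors, the MEF2 motif of muscle genes, the TATA box TATAAA and the ETS motif CCGGAAG, on either strand.
Cox6a2: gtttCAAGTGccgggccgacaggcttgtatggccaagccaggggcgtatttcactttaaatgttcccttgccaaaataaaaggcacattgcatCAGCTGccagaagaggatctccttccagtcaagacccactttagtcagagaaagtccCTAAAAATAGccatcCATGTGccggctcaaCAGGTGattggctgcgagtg
Cox8b: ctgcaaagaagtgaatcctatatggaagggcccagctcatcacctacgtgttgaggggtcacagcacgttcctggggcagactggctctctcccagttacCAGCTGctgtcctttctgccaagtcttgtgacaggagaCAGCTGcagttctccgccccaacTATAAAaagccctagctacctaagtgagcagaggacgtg
Cox8a: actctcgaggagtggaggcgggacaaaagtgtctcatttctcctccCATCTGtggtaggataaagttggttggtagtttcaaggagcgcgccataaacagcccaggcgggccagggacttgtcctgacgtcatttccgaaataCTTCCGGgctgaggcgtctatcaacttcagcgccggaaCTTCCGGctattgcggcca
The window of Cox6a2 held 4 E-boxes and a MEF2 motif, that of Cox8b held 2 E-boxes and a TATA box, and that of Cox8a held 1 E-box and 2 ETS motifs.

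Promoters of 300 bases (250 before and 50 after the start) were found for 65 of the 73 genes. The MEF2 motif was present in 1 of them, Cox6a2 (1.54%), against 3.37% of all 27456 promoters and 1.81% of those of tested genes. ETS motifs were present in 20 (30.8%) against 9.22% of all promoters and 15.6% of the 10206 promoters of tested genes. The NRF1 core GCGCATG, a motif known from respiratory chain genes, was present in 11 (16.9%) against 3.94% and 5.90%. The YY1 motif AAGATGG was present in 16 (24.6%) against 7.30% and 7.79%, and the half-site AAGGTCA of the estrogen-related receptors in 9 (13.8%) against 4.37% and 3.16%. The E-box was present in 40 (61.5%) against 71.6% and 65.3%, and the TATA box in 5 (7.69%) against 14.3% and 8.75%, both near the share of tested genes. Both strands were searched, the motifs may overlap one another, and a match is a description of the sequence only.

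At 1000 ppm, 70 of 73 subunit genes had a higher mean level than in control lungs, but by little. The median difference of the 73 genes was 0.13, against 0.0055 over all 21261 genes tested. Without Cox6a2 and Cox8b, differences ran from -0.10 (Cox7a2l) to 0.26 (Ndufa12). Of the 73 genes, 33 were higher with an unadjusted limma p-value under 0.05 (45.2%), against 5.41% of all genes tested. None was lower with such a p-value, against 3.57% of all genes. At a fold change of at least 1.5 with an unadjusted p-value under 0.05, Cox6a2 was the 1 subunit gene called, against 1.63% of all genes. After Benjamini-Hochberg adjustment over all genes 0 subunit genes passed 0.05 in limma, against 0.0188% of all genes. These are differences in RNA of whole lung, where more cells of a type and more RNA per cell cannot be told apart.

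At 600 ppm, 65 of 73 genes were higher than in control lungs, with a median difference of 0.089 against -0.00029 over all genes. An unadjusted limma p-value under 0.05 was reached by 9 higher genes (12.3%), against 1.94% of all genes, and by 0 lower genes, against 2.41%. No subunit gene was called at 1.5-fold (0.607% of all genes) and 0 passed the adjusted threshold in limma (0% of all genes). At 1500 ppm, 62 genes were higher, with a median difference of 0.067 against 0.012 over all genes. There 12 were higher with an unadjusted p-value under 0.05 (16.4%), against 3.91% of all genes, and 0 were lower, against 3.04%. None was called at 1.5-fold (1.23% of all genes) and 0 passed the adjusted threshold in limma (0.00470% of all genes). The 3 comparisons share their 6 control rats, and their values are set side by side without a test between them.

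The subunit genes were bright: 46 of 73 (63.0%) lay in the brightest 10% of the genes tested. Among those, 7.19% of 2127 genes were higher at 1000 ppm with an unadjusted p-value under 0.05, and 23 of the 46 subunit genes were. Their spread between rats of a group was small. The median residual standard deviation was 0.10 for the 73 genes and 0.23 for all genes tested.

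**Figure D1:**
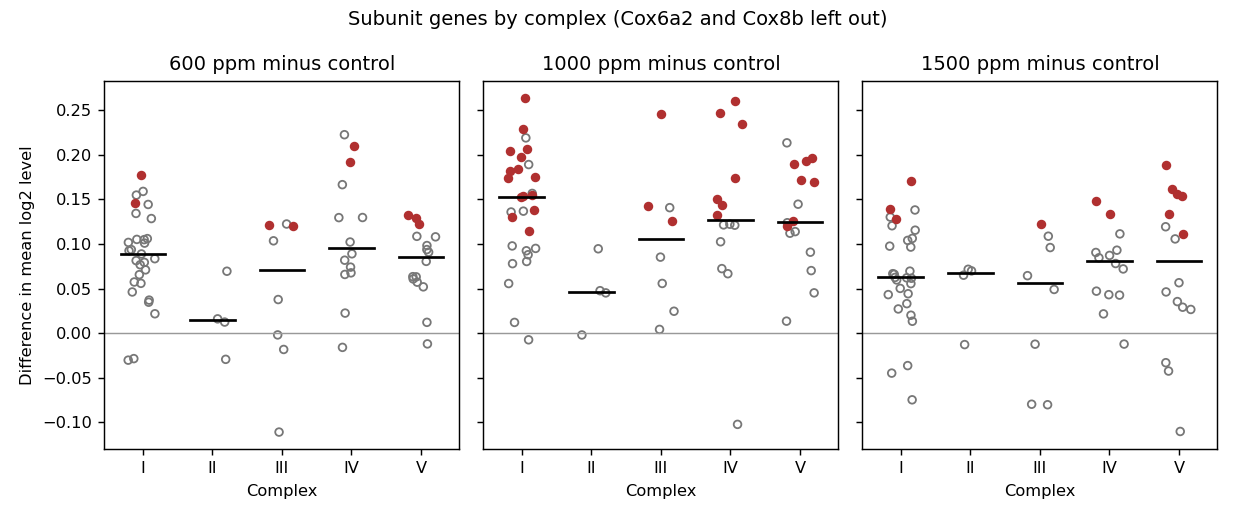
Differences in mean log2 level from control (y axis) for 71 subunit genes by complex (x axis) at 600, 1000 and 1500 ppm, Cox6a2 and Cox8b left out because of their scale. Each point is a gene, filled red where the unadjusted limma p-value was under 0.05, and the bar is the median of the complex; most points lie above 0 in every panel, and at 1000 ppm 32 of the 71 are red.

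Complex I takes electrons from NADH. At 1000 ppm 28 of its 29 genes were higher, with a median difference of 0.15. Of the 29, 15 were higher with an unadjusted p-value under 0.05 (51.7%, against 5.41% of all genes). Among them were Ndufa2, Ndufa11, Ndufa12, Ndufb2, Ndufb5, Ndufb6, Ndufb9, Ndufb10, Ndufb11, Ndufc2, Ndufs4, Ndufs7, Ndufv1 and Ndufv3, with differences from 0.11 (Ndufs4) to 0.26 (Ndufa12). Ndufv1 and Ndufs7 belong to the catalytic core, and most of the others are accessory subunits. A second probe of Ndufb10 differed by 0.031 (SE 0.056) at 1000 ppm, against 0.18 on the probe used here. Further probes gave 0.070 (SE 0.14) against 0.11 for Ndufs4, and 0.14 and 0.25 against 0.13 for Ndufv3. Ndufv1, which carries the flavin that accepts the electrons, had control levels of 3.26 to 3.48 and levels of 3.42 to 3.82 at 1000 ppm. The groups overlapped, and 3 of 6 exposed rats lay above every control rat. The difference was 0.18 ± 0.066 (SE), with an exact permutation p-value of 0.0238 and a limma adjusted p-value of 0.516. At 600 ppm Ndufb11 and Ndufc2 were higher with an unadjusted p-value under 0.05 (2 of 29, 6.90%, against 1.94% of all genes). At 1500 ppm Ndufa12, Ndufa5 and Ndufb3 were (3 of 29, 10.3%, against 3.91%). A fit with the slide as a blocking term links the middle and high dose to control through low-dose rats. In that fit 1 of the 29 was higher with such a p-value at 1000 ppm (3.45%, against 1.98% of all genes). There 27 of 29 had a higher mean (median 0.11). At 1500 ppm 0 had such a p-value in limma (1.45% of all genes were higher with one). A higher mean was seen in 12 of 29 (median -0.029).

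Ndufs1, the largest core subunit of complex I, had a difference of 0.19 ± 0.11 (SE) at 1000 ppm and an exact permutation p-value of 0.0952. Its residual standard deviation of 0.19 was above the median of 0.10 for complex I, and Ndufa9 varied most in this complex, at 0.22. The difference of Ndufa9 was 0.14 ± 0.13 (SE) at 1000 ppm, with an exact permutation p-value of 0.266.

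Complex II, succinate dehydrogenase, also serves the citric acid cycle. None of its 4 genes had an unadjusted p-value under 0.05 at any dose. The flavoprotein Sdha had differences of -0.029, -0.0021 and -0.013 at 600, 1000 and 1500 ppm, each with an SE of 0.076. The iron-sulfur subunit Sdhb had differences of 0.069, 0.095 and 0.065, each with an SE of 0.059. The membrane anchor Sdhc differed from control by 0.016, 0.048 and 0.072 (SE 0.096), and the other anchor, Sdhd, by 0.012, 0.045 and 0.070 (SE 0.060). A p-value above the threshold does not show that complex II was unaltered, and its median difference at 1000 ppm was 0.046. In the slide-block fit 3 of the 4 had a higher mean at 1000 ppm (median 0.047). At 1500 ppm that fit left 0 of the 4 with a higher mean (median -0.067).

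Complex III passes electrons to cytochrome c. At 1000 ppm 8 of 8 genes were higher and 3 had an unadjusted p-value under 0.05 (37.5%, against 5.41% of all genes). These were the core subunit Uqcrc1, with a difference of 0.25, and the small subunits Uqcrb (0.14) and Uqcr10 (0.13). Uqcrb, named after its values were seen, had control levels of 3.74 to 3.85 and levels of 3.91 to 3.98 at 1000 ppm. These groups did not overlap. The exact permutation p-value was 0.00216, the smallest that 6 rats against 6 allow, and the limma adjusted p-value was 0.516. A second probe of Uqcrb had differences of 0.083, 0.038 and -0.11 (SE 0.080) at 600, 1000 and 1500 ppm. The probe described above gave 0.12, 0.14 and 0.12, so the separation at 1000 ppm rests on that probe. The Rieske protein Uqcrfs1 had differences of -0.0020, 0.14 and 0.049 (SE 0.098). Uqcrq varied most in the complex, with a residual standard deviation of 0.25, and its differences were -0.11, 0.0041 and -0.012 (SE 0.14). The slide-block fit left 0 of the 8 genes under an unadjusted limma p-value of 0.05 at any dose. Of all genes 2.65%, 1.98% and 1.45% were higher with such a p-value there at 600, 1000 and 1500 ppm. The mean was still higher there in 8 of 8 genes at 1000 ppm (median 0.052, against 0.11 without the block). At 1500 ppm it was higher in 4 of 8 (median 0.00041).

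Complex V makes ATP. At 1000 ppm 16 of 16 genes were higher, with a median of 0.13, and 7 had an unadjusted p-value under 0.05 (Atp5f1a, Atp5mc1, Atp5mf, Atp5mg, Atp5mk, Atp5pd and Atp5po). At 1500 ppm 13 of 16 were higher and 6 had such a p-value (Atp5mc1, Atp5mc2, Atp5me, Atp5mg, Atp5mk and Atp5po). At 600 ppm 3 did (Atp5mf, Atp5mg and Atp5mk). The shares at 600, 1000 and 1500 ppm were 18.8%, 43.8% and 37.5%, against 1.94%, 5.41% and 3.91% of all genes. In the slide-block fit 0 of the 16 had such a p-value in limma at any dose. Of all genes 2.65%, 1.98% and 1.45% were higher with one in that fit. The mean was still higher there in 15 of 16 genes at 1000 ppm (median 0.13) and in 12 of 16 at 1500 ppm (median 0.030). Atp5mg, subunit g, had levels of 4.38, 4.44 and 4.48 (lowest, median and highest) in control rats. The same 3 values were 4.50, 4.55 and 4.67 in low-dose, 4.51, 4.64 and 4.74 in middle-dose and 4.50, 4.57 and 4.69 in high-dose rats. Every exposed rat of each dose group lay above every control rat. The differences were 0.12, 0.19 and 0.15 (SE 0.050), with an exact permutation p-value of 0.00216 at each dose. The limma adjusted p-values were 0.996, 0.487 and 0.467. Atp5mg was named for its low limma p-values in these same arrays, so its separation and exact p-values are not independent support.

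Atp5mf, subunit f, was higher in 6 of 6 rats at 600 ppm than in any control rat (4.98 to 5.09 against 4.82 to 4.97), with a difference of 0.13 ± 0.049 (SE). Its exact permutation p-value there was 0.00216 and its limma adjusted p-value 0.996. Atp5mc1 and Atp5mc2 encode the same mature c subunit of the rotor behind different leader peptides. At 1500 ppm Atp5mc1 lay at 3.58 to 3.84 against 3.40 to 3.58 in control rats, and Atp5mc2 at 5.19 to 5.36 against 5.04 to 5.18. In neither gene did the groups overlap. The differences were 0.19 ± 0.065 and 0.13 ± 0.050 (SE), each with an exact permutation p-value of 0.00216, and the limma adjusted p-values were 0.572 and 0.608. Atp5mk, a small subunit of the membrane sector, had differences of 0.13, 0.20 and 0.11 (SE 0.054), with exact permutation p-values of 0.0108, 0.00649 and 0.0563. Atp5mf, Atp5mc1, Atp5mc2 and Atp5mk were also among the lowest limma p-values of these arrays. Their separation and exact p-values are therefore not independent support.

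Of the alpha and beta subunits of complex V, beta was the less uniform. Atp5f1a (subunit alpha) had differences of 0.11, 0.17 and 0.12 (SE 0.067), with an exact permutation p-value of 0.0303 at 1000 ppm. Atp5f1b (subunit beta) had differences of -0.012, 0.14 and 0.027 (SE 0.19). Its residual standard deviation of 0.34 was the highest of complex V, where the median was 0.099.

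In complex IV, 15 of 16 genes were higher at 1000 ppm and 8 had an unadjusted p-value under 0.05 (Cox5a, Cox5b, Cox6a2, Cox6b1, Cox6c, Cox7a2, Cox7b and Ndufa4). At 600 ppm Cox5b and Cox6b1 did, and at 1500 ppm Cox5b and Cox6c. The shares at 600, 1000 and 1500 ppm were 12.5%, 50% and 12.5%, against 1.94%, 5.41% and 3.91% of all genes. The slide-block fit left 3, 2 and 0 genes higher with such a p-value at 600, 1000 and 1500 ppm. Those shares were 18.8%, 12.5% and 0%, against 2.65%, 1.98% and 1.45% of all genes. The mean was higher there in 14 of 16 genes at 1000 ppm (median 0.11) and in 8 of 16 at 1500 ppm (median -0.0061). Cox6b1, a subunit on the intermembrane side, had the lowest p-value of all subunit genes at 600 and 1000 ppm. Its levels were 2.40, 2.43 and 2.70 (lowest, median and highest) in control rats, 2.66, 2.70 and 2.82 in low-dose, 2.65, 2.75 and 2.91 in middle-dose and 2.46, 2.63 and 2.67 in high-dose rats. Of the 6 control rats, 2 males lay among the exposed rats and the other 4 lay below every exposed rat. The differences were 0.21, 0.25 and 0.093 (SE 0.063), with exact permutation p-values of 0.0238, 0.0130 and 0.206, and the limma adjusted p-values were 0.996, 0.487 and 0.809. All 3 probes of this gene were higher at all doses. Cox5b, another nuclear subunit of the holoenzyme, had differences of 0.19, 0.24 and 0.15 (SE 0.066), with exact permutation p-values of 0.0195, 0.00649 and 0.0498. It was named for its low limma p-value in these same arrays.

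Further probes were present for 13 genes, 16 probes in all. At 1000 ppm 16 of 16 were higher than in control rats, and their median difference was 0.13. Of these, 8 had an unadjusted p-value under 0.05, against 5.41% of all genes on their brightest probes. At 600 ppm 15 were higher and at 1500 ppm 14.

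Over the 73 genes, the median of each rat's level minus the control mean was -0.084 to 0.095 in control rats, 0.057 to 0.14 at 600 ppm, 0.075 to 0.21 at 1000 ppm and -0.018 to 0.13 at 1500 ppm. The groups overlapped. The 2 highest control rats were males of slide 1 (0.088 and 0.095), and the 2 lowest were females of slide 4 (-0.073 and -0.084). In the middle-dose group 59 to 68 of the 73 genes lay above the control mean in each rat, whereas in the control group this number ran from 10 to 62.

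**Figure D2:**
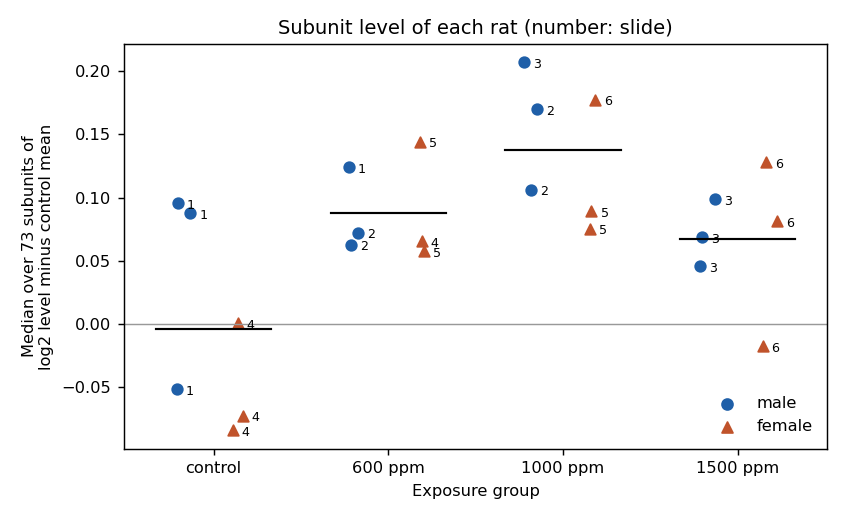
Median over the 73 subunit genes of the log2 level minus the control mean (y axis) in each of 24 rats, by exposure group (x axis). Blue circles are males, orange triangles females, the number beside a point is its slide and the bar is the group mean; the middle-dose rats lie between 0.075 and 0.21 and the control rats between -0.084 and 0.095.

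Slide and dose were partly confounded, so the comparisons were repeated where rats of different groups shared a slide. On slide 1 the low-dose rat was above the mean of 3 control rats in 63 of 73 genes (median 0.089), and on slide 4 in 51 of 73 (median 0.11). When slide entered the fit as a block, 3 genes were higher at 1000 ppm with an unadjusted p-value under 0.05 (4.11%, against 1.98% of all genes), and the median difference was 0.10. At 1500 ppm 0 genes were (1.45% of all genes), and the median difference was -0.0055. On slides 2 and 5, where 4 low-dose and 4 middle-dose rats could be compared directly, the middle dose gave the higher mean level in 53 of 73 genes (median difference 0.019). None had an unadjusted limma p-value under 0.05 there (6.49% of all genes), and the lowest was 0.109 for Ndufb10 (limma). The part of the slide in the dose differences was not tested beyond these values.

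The muscle isoforms of complex IV spanned a range unlike the other subunits. Cox6a2, the heart and skeletal muscle form of subunit VIa, had levels of 1.36, -2.71 and 0.59 in the male control rats and -1.39, -2.92 and -3.67 in the females. At 600 ppm it lay at 2.22, -0.98 and 0.73 in males and -3.67, -2.72 and 2.17 in females. At 1000 ppm it lay at 0.066, 1.43 and 2.76 in males and 2.53, -1.60 and 3.39 in females, and at 1500 ppm at -3.92, 0.46 and -3.34 in males and 2.71, 3.40 and -3.67 in females. Rats of 1 group differed by several units, and at 1000 ppm 4 of 6 rats lay above every control rat. The difference at 1000 ppm was 2.88 ± 1.38 (SE), with an exact permutation p-value of 0.0368 and a limma adjusted p-value of 0.550. The low and high dose gave differences of 1.08 and 0.73 (SE 1.38), and in the slide-block fit the latter turned to -2.26 (SE 3.00). Over 12 other settings (limma in all but the methods' t-test) the unadjusted p-value at 1000 ppm ran from 0.0159 to 0.527. It was under 0.05 in 7 of them. On leaving out 1 rat at a time it was under 0.05 in 13 of 24 cases.

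Cox8b, the muscle form of subunit VIII, which brown fat also uses, had levels of -0.29, 0.024 and 0.73 (lowest, median and highest) in control rats. The same values were -0.65, 0.48 and 0.93 in low-dose, -0.28, 0.92 and 1.88 in middle-dose and -0.054, 0.15 and 1.90 in high-dose rats. All groups overlapped. The differences were 0.23, 0.76 and 0.51 (SE 0.38), with an exact permutation p-value of 0.0714 at 1000 ppm. In the slide-block fit the difference at 1500 ppm turned to -0.94 (SE 0.69). The residual standard deviations within groups were 2.51 for Cox6a2 and 0.69 for Cox8b, against at most 0.34 for each of the other 71 genes.

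The partner isoforms used by most tissues moved within narrow bounds. Cox6a1, the partner of Cox6a2, lay between 5.53 and 6.00 over all rats, with differences of 0.13, 0.12 and 0.090 (SE 0.065). Cox8a, the partner of Cox8b, lay between 4.10 and 4.48, with differences of 0.13, 0.12 and 0.047 (SE 0.064). Cox7a2, the partner of the Cox7a1 that was not analysed here, had differences of 0.10, 0.14 and 0.085 (SE 0.061). Of the other isoform pairs, Cox4i1, the common form of subunit IV, had differences of 0.074, 0.072 and 0.072 (SE 0.054). Cox4i2, the form known from lung and from cells short of oxygen, had differences of 0.22, 0.10 and 0.078 (SE 0.13), and the exact permutation p-value at 600 ppm was 0.0584. Cox6b2, known as a testis form, had differences of 0.066, 0.067 and 0.022 (SE 0.094).

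**Figure D3:**
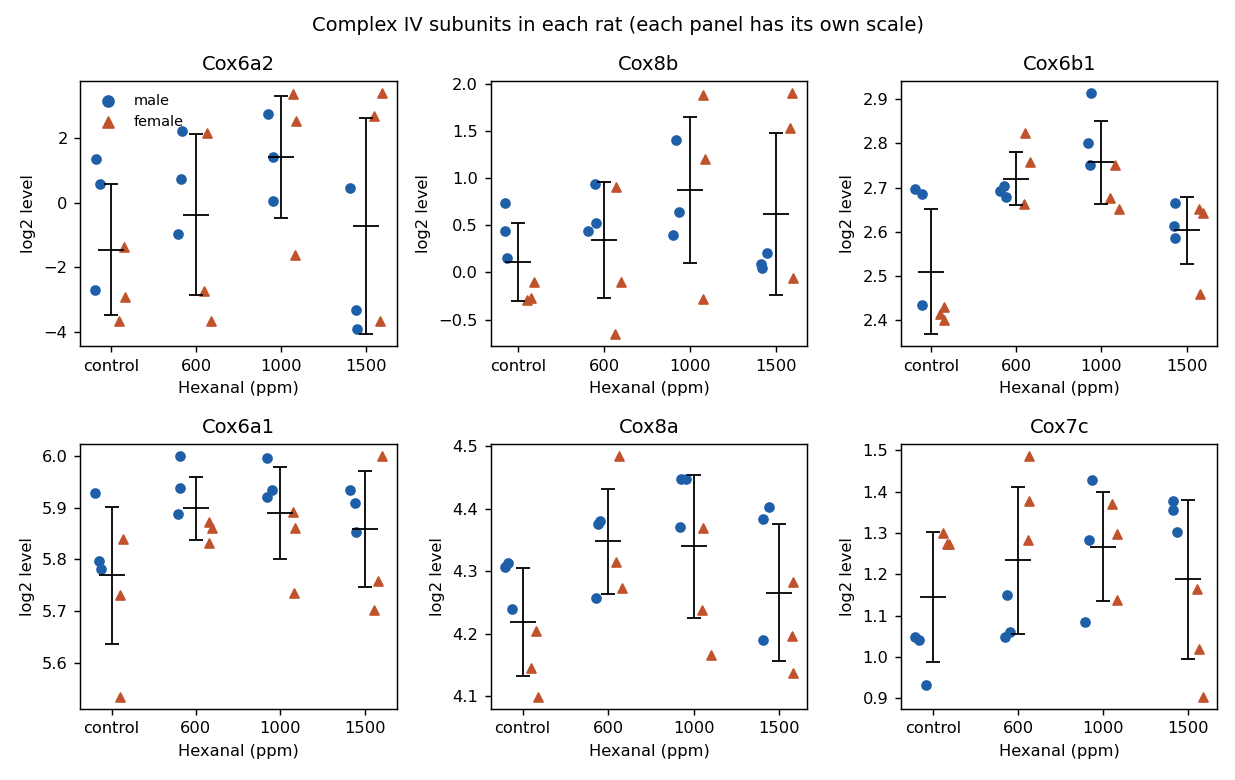
Log2 level (y axis, a separate scale in each panel) of 6 complex IV genes in each rat by hexanal concentration (x axis, ppm). Circles are males, triangles females, and the black bars are the mean and standard deviation of 6 rats; Cox6a2 spans -3.92 to 3.40, whereas its partner Cox6a1 spans 5.53 to 6.00.

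Heart muscle markers moved with Cox6a2. Of 17 heart markers on the array 16 passed the filter, and their mean level ran from -4.20 to -0.11 in control rats, from -4.11 to 0.79 at 600 ppm, from -2.41 to 1.83 at 1000 ppm and from -4.32 to 1.78 at 1500 ppm. The atrial hormone gene Nppa was well above background on 5 arrays and did not pass. The heart myosin gene Myh6 ranged from -8.30 to 5.41 and was well above background on 20 of 24 arrays. At 1000 ppm all 16 markers were higher than in control rats, and their median difference was 2.44. An unadjusted p-value under 0.05 was reached by 10 (62.5%, against 5.41% of all genes higher). Among these 10, Mybpc3 was well above background on 16 of 24 arrays. It passed the filter only through the 1000 ppm group, so its higher level there is no support. At 600 and 1500 ppm the median of the 16 markers was 1.00 and 0.74, and 0 had such a p-value in limma at either dose. In the slide-block fit the median at 1000 ppm was 1.24 with 1 marker under this p-value, and at 1500 ppm it turned to -1.75 with 2 of 16 markers higher. Skeletal muscle markers (8 passed) and fat markers (6 passed) had medians of 0.66 and 0.65 at 1000 ppm, with 3 and 2 genes called. Of all genes 1.63% were called there. At 1500 ppm their medians were 0.41 and 0.85, with 0 and 1 genes called (1.23% of all genes). In the slide-block fit these medians at 1500 ppm turned to -0.68 and -0.71. The skeletal myosins Myh1, Myh2 and Myh4 were well above background on 1, 5 and 9 arrays. The 10 lung markers had a median difference of -0.022 at 1000 ppm with 0 genes under an unadjusted limma p-value of 0.05.

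Across the 24 rats the level of Cox6a2 followed the mean of the heart markers with Pearson's r = 0.997 and Spearman's rho = 0.995 (permutation p = 1e-05 for both, the smallest that 100000 permutations can give, 2.5e-05 after adjustment over 5 relations). For Cox8b r was 0.902 and rho 0.90 (permutation p = 1e-05 for both, adjusted 2.5e-05). Without the 2 rats farthest from the median of the marker mean, r was 0.996 and 0.907. Within males r was 0.998 for Cox6a2 and 0.815 for Cox8b, within females 0.996 and 0.957, and within single slides it ran from 0.951 to 0.999 and from 0.494 to 0.999. With the skeletal muscle list in place of the heart list, r of both genes stayed close to its value over the 24 rats. With the brown fat list it was 0.848 for Cox6a2 and stayed close for Cox8b. The relation was thus seen with each list. Myh7 and Fabp3, which heart muscle also uses, had the largest differences of the skeletal and fat lists at 1000 ppm (4.03 and 2.69). The lists therefore cannot tell these tissues apart. The partner isoforms showed no such relation: r was -0.021 for Cox6a1 (permutation p = 0.923, adjusted 0.923), 0.24 for Cox7a2 (permutation p = 0.270, adjusted 0.450) and 0.12 for Cox8a (permutation p = 0.573, adjusted 0.716). Their rho values were -0.13 (permutation p = 0.532), 0.19 (permutation p = 0.381) and 0.12 (permutation p = 0.578), each 0.578 after adjustment.

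**Figure D4:**
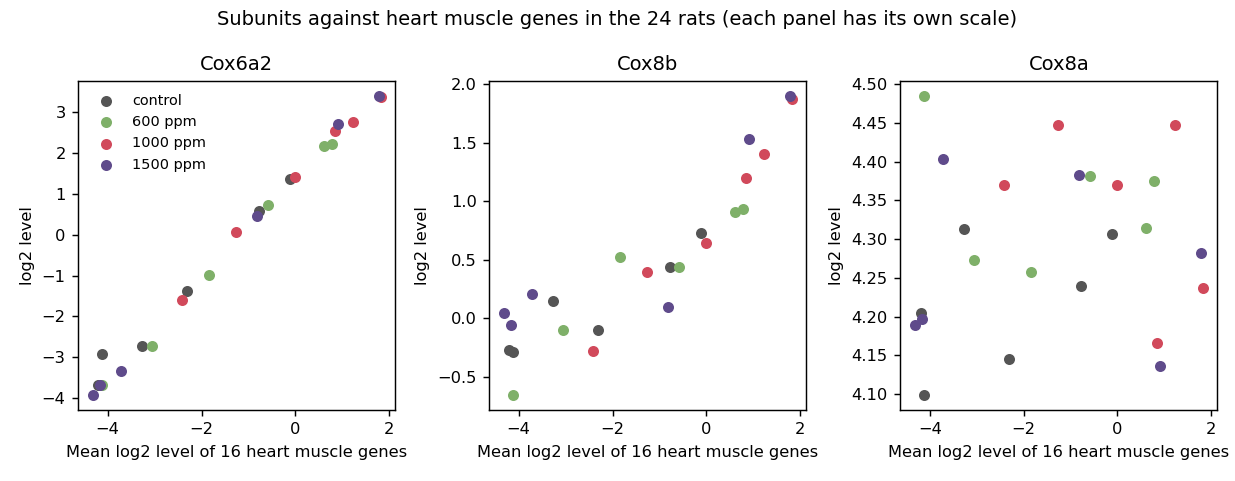
Log2 level of Cox6a2, Cox8b and Cox8a (y axes, a separate scale in each panel) against the mean log2 level of 16 heart muscle genes (x axes) in 24 rats, coloured by exposure group. The points of Cox6a2 follow a line (r = 0.997), those of Cox8b rise (r = 0.902), and those of the common isoform Cox8a scatter (r = 0.12).

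Other subunits moved with the same markers, by far less. In a limma model with dose group and the marker mean, 18 of the 73 genes rose with the markers at an unadjusted p-value under 0.05 (24.7%), against 7.13% of all genes tested, and 3 fell (4.11%), against 12.0%. Besides Cox6a2, with a slope of 1.22, and Cox8b (0.31), the rising genes were Ndufa4, Ndufa9, Ndufb5, Ndufb9, Ndufs1, Ndufs3, Sdha, Uqcrc1, Uqcrc2, Uqcrfs1, Cox7b, Atp5f1a, Atp5f1b, Atp5f1c, Atp5mc1 and Atp5pf. Their slopes ran from 0.027 (Atp5f1a) to 0.087 (Atp5f1b) per unit of the marker mean. Several are catalytic or core subunits. The falling genes were Cox6b2 (-0.040), Cox7c (-0.036) and Uqcrq (-0.053).

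With the marker mean as a covariate, the dose differences of Cox6a2 were -0.26, -0.15 and -0.17 (SE 0.12, 0.13 and 0.12) at 600, 1000 and 1500 ppm, the first with an unadjusted limma p-value of 0.0409. Those of Cox8b were -0.10, 0.0018 and 0.28 (SE 0.17, 0.18 and 0.17). At 1500 ppm these were the lowest and the highest of the 73 differences. The median over the 73 genes stayed positive. At 1000 ppm 62 of 73 genes were higher, with a median of 0.11 against 0.026 over all genes. There 16 had an unadjusted p-value under 0.05 (21.9%, against 4.73% of all genes). At 600 ppm 10 and at 1500 ppm 10 genes were higher with such a p-value (13.7% each, against 2.80% and 5.08% of all genes). The medians were 0.071 and 0.057, against 0.0089 and 0.017 over all genes. In this fit Atp5mg had differences of 0.12, 0.18 and 0.15 and Cox6b1 of 0.20, 0.22 and 0.085, close to those without the covariate. In the rats below 0 on the marker mean alone (6 control, 4 low-, 3 middle- and 4 high-dose rats, chosen after the data were seen), 15 genes were higher at 1000 ppm with such a p-value. The share of all genes was not computed for these rats, so this count has no background beside it.

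**Figure D5:**
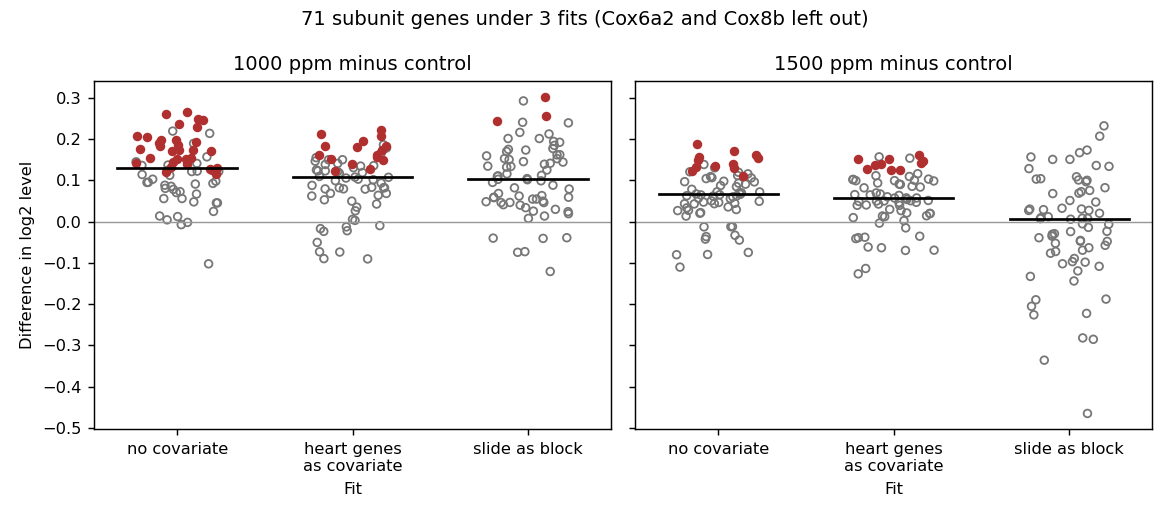
Differences in log2 level from control (y axis) of 71 subunit genes, Cox6a2 and Cox8b left out, at 1000 and 1500 ppm under 3 fits (x axis): no covariate, the mean of 16 heart muscle genes as a covariate, and the slide as a block. Points are genes, red where the unadjusted limma p-value was under 0.05, and bars are medians; with the slide as a block 3 genes are red at 1000 ppm and 0 at 1500 ppm.

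Males and females were compared at 1500 ppm. The median difference of the 73 genes from control was -0.0027 in males and 0.12 in females, and 36 and 65 genes were higher than in control rats of the same sex. The median of male minus female, -0.152, turned to 0.090 in the slide-block fit and 0.0054 without scaling, and was -0.042 with the heart covariate. A sex difference with an unadjusted p-value under 0.05 was found for 14 genes (19.2%), against 20.2% of all genes tested. After adjustment over all genes 2 remained, Cox7c and Sdhd (2.74%), against 4.97% of all genes. Males and females were on different slides at every dose, and within a dose group a sex difference and a slide difference cannot be told apart. The marker mean of the high-dose rats was -4.32 to -0.82 in males and -4.17 to 1.78 in females.

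Cox7c, a small subunit of complex IV, had levels of 1.05, 1.04 and 0.93 in male and 1.27, 1.27 and 1.30 in female control rats. At 1500 ppm it had 1.30, 1.36 and 1.38 in males and 0.90, 1.02 and 1.16 in females. The order of the sexes was turned round without overlap. The effect was 0.34 in males and -0.25 in females, and they differed by 0.59 ± 0.13 (SE; limma adjusted p = 0.0117). Over 9 other settings this adjusted p-value ran from 0.0098 to 0.610, highest with the slide as a block, and it passed 0.05 in 6 of them.

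Sdhd had levels of 2.86, 2.89 and 2.92 in male and 2.85, 2.84 and 2.84 in female control rats. At 1500 ppm it had 2.81, 2.78 and 2.81 in males and 3.04, 3.14 and 3.04 in females. The high-dose females lay above every control rat, and the high-dose males below every control rat. The effects were -0.089 and 0.23, and they differed by -0.32 ± 0.087 (SE; limma adjusted p = 0.0401). Over 9 other settings the adjusted p-value ran from 0.0374 to 0.850 and passed 0.05 in 2, and on leaving out 1 rat at a time it passed in 11 of 24 cases. Cox6c, another small subunit of complex IV, had effects of -0.0032 in males and 0.27 in females (limma adjusted p = 0.0586).

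Genes that serve the same machinery but have symbols outside the rule, Ndufab1 among them, were counted as well. Of 41 assembly factors and electron or metabolite carriers, 28 were higher at 1000 ppm, with a median difference of 0.042, and 2 had an unadjusted p-value under 0.05 (4.88%, against 5.41% of all genes), a share near the background. These were Cycs, cytochrome c (0.22 ± 0.089, SE), and Ndufab1, the mitochondrial acyl carrier protein (0.19 ± 0.077). At 600 and 1500 ppm 0 were higher with such a p-value in limma, and at 600 ppm 1 was lower. Of 16 genes of the citric acid cycle and pyruvate dehydrogenase, at 1000 ppm 13 had a higher mean level (median difference 0.070), and 4 were higher with such a p-value (25.0%, against 5.41% of all genes). The slide-block fit left 8 of 16 higher with a median of 0.011 and 0 under this p-value in limma, and the heart covariate left 6 of 16 higher with a median of -0.017 and 2 under it. Idh3g and Idh3a, subunits of the NAD-dependent isocitrate dehydrogenase, differed by 0.21 ± 0.055 and 0.28 ± 0.086 (SE), with limma adjusted p-values of 0.497 and 0.516. Of 15 regulators of mitochondrial biogenesis, 6 had a higher mean level at 1000 ppm (median difference -0.037). The regulator Nrf1 had differences of -0.13, -0.18 and -0.20 (SE 0.084) and the coactivator Ppargc1b of -0.0035, -0.052 and 0.37 (SE 0.10). At 1000 ppm 1 regulator was lower with an unadjusted p-value under 0.05 and 0 were higher in limma.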

How the data were processed

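The authors' deposited intensities are signals of one-colour Agilent arrays (Feature Extraction 11.5.1.1), background-subtracted and detrended within each array, with no scaling between arrays; the deposited series table holds the same intensities, with at least 99.69% of an array's probes equal to within 0.1%. The 42877 spots left without controls gave 30367 probes after averaging, of which 18355 were matched by accession to 15443 symbols through a gene table of assembly GRCr8, used for names and promoter sequences only. Values are log2 signals minus the array's 75th percentile. A probe entered the tests if 5 or more of the 6 arrays of any group had it well above background, and each gene was represented by its brightest probe. Doses were compared with control in limma 3.58.1 (R 4.3.3) on all 24 arrays with Benjamini-Hochberg adjustment, sexes by the difference of their effects over 8 groups of sex and dose; the fits were tested on simulated data. The calling rule of 1.5-fold and an unadjusted p-value under 0.05 is that of the study's methods. Exact permutation tests enumerated 924 arrangements of 6 rats against 6, two-sided; precision is limited by the number of arrays. Members and gene lists (muscle and common isoforms, core subunits, assembly factors and carriers, biogenesis regulators, citric acid cycle, heart muscle, skeletal muscle, fat, lung and blood markers) were chosen with earlier results of these data known. Genes named in full are the isoforms and core subunits, the 3 lowest p-values at each dose, called genes, the 3 lowest sex-difference p-values and the most variable gene of each complex; others were named after their values were seen. The 4 blood markers had a median difference of -0.19 at 1000 ppm, with 0 under an unadjusted limma p-value of 0.05. At 1500 ppm their median was -0.47 with 1 gene called (1.23% of all genes), and -0.40 with 0 called in the slide-block fit. Nothing in the labels says how RNA was batched beyond the slides. The main limma and exact p-values measure the spread between rats of a group, which also holds differences of sex and slide. Dose differences hold slide differences as well, since no control rat shared a slide with a middle- or high-dose rat.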

Additional observations from a re-analysis of the deposited data

Results flagged for a closer look

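In 128 groups of 6 rats tested (32 named genes in 4 groups), 4 had a rat set apart by Dixon's criterion, where chance gives about 1 in 20 groups. Ndufs1 and Uqcrfs1 were highest in the same high-dose female, rat 37, with gap-to-range ratios of 0.798 and 0.632; the mean of the heart markers in that rat, 1.78, was the highest of its group. Uqcrc1 was highest in the middle-dose male rat 13 (0.659), whose heart marker mean was 1.22, and Atp5f1b was lowest in the high-dose female rat 36 (0.644), whose heart marker mean was 0.91. The dose effect at 1500 ppm differed between the sexes in limma for Cox7c (male minus female 0.591) and Sdhd (-0.318), with the slide confounded with the sex. The part of the heart markers and of the slide in these values was not tested.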

How the results depend on the processing

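No paired analysis was possible because no rat number is shared between groups. At 600 ppm the 9 genes higher with an unadjusted p-value under 0.05 became 4 under quantile normalization, 0 without scaling of the deposited series table, 17 with the methods' t-test and 5 with the slide block. At 1000 ppm the 33 became 18 under array median scaling, 7 without scaling, 3 with the slide as a block and 16 with the heart markers as a covariate. At 1500 ppm the 12 became 7 under array median scaling, 0 without scaling, 4 with control and 1 dose only and 0 with the slide as a block. With the rats above 0 on the heart marker mean left out, an alternative chosen after seeing the data, the counts at 600 and 1000 ppm were 4 and 15. With the heart covariate 1 gene, Cox6a2, was lower at 600 ppm with an unadjusted p-value under 0.05. The 1 gene called at 1.5-fold at 1000 ppm became 0 under normexp, with sex, slide or heart markers in the fit, without Cox6a2 and Cox8b (also chosen after seeing the data) and without the rats above 0 on the heart marker mean, and 2 without scaling and with control and 1 dose only. Median differences were 0.158, 0.236 and 0.0016 without scaling at 600, 1000 and 1500 ppm, and at 1500 ppm -0.0055 with the slide block. Scaling moved the median of all genes at 1000 ppm to -0.118 (normexp) and 0.109 (none); the subunit genes lay 0.283 and 0.127 above it. Cox6a2 turned direction with the heart covariate, to -0.255, -0.155 and -0.17 at 600, 1000 and 1500 ppm, and at 1500 ppm also in the slide-block fit, to -2.26 (SE 3.00). Its r was 0.848 with the brown fat list in place of the heart list. The 2 genes with an adjusted sex difference at 1500 ppm became 1 under normexp, array median scaling and no filter, and 0 without scaling and with the slide block. The median of male minus female, -0.152, was -0.231 under normexp, 0.0054 without scaling, 0.0897 with the slide block and -0.042 with the heart covariate. On the shared slides 1 gene had an unadjusted p-value under 0.05 with no filter. The causes were not tested.

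Leaving out 1 rat at a time gave 5 to 17 higher genes at 600 ppm, 21 to 36 at 1000 ppm and 5 to 15 at 1500 ppm, 0 to 2 called at 1000 ppm, and 1 to 3 with an adjusted sex difference. The medians ran from 0.073 to 0.105, 0.118 to 0.147 and 0.046 to 0.098, that of male minus female from -0.188 to -0.092, and that on the shared slides from -0.0034 to 0.052. Counts moved by over 1.5 times at 600 ppm without control rats 1 (16), 3 (17), 22 (5) or 23 (5) or low-dose rat 28 (5), at 1000 ppm without control rat 23 (21), and at 1500 ppm without control rat 22 (7) or high-dose rat 38 (5). For the named genes 1041 of 1152 values under other settings stayed on their side of the threshold, 90 lost it, 19 gained it and 2, those of Cox6a2 at 600 and 1000 ppm with the heart covariate, were set apart as reversed; counting differences that never passed the threshold, 61 of the 1152 changed sign. Of 2304 values with 1 rat left out, 2222 stayed on their side, 58 lost the threshold and 24 gained it, and 49 changed sign.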
